A study of Mus musculus with 2 samples.

Results

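The genes described here are 29 mouse genes of cholesterol synthesis and sterol control, taken by symbol and gene identifier from 43346 gene rows, of which 21474 are protein-coding. They were chosen by role, not by their values. G1E-ER4 is an immortalized mouse erythroid line, labelled male, without functional endogenous Gata1, a transcription factor of red cell maturation. It carries a Gata1-ER fusion, whose activity estradiol switches on. Both libraries of polyA RNA came from 1 group, cells kept for 7 hours in 17beta-estradiol at 10 nM, and both cite one biosample, so their spread may be technical only. There was no untreated group, so no value below measures an effect of estradiol, and all values come from a single engineered line.

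Cells build cholesterol from acetyl-CoA through HMG-CoA, mevalonate, isoprenoid diphosphates, squalene and lanosterol, and the isoprenoids also feed protein prenylation, ubiquinone and dolichol. When membrane sterol falls, the escort protein SCAP carries SREBP transcription factors to the Golgi, where proteases release their active part, which switches on genes of synthesis and uptake; INSIG proteins hold SCAP back when sterol is plentiful. LXR receptors answer to oxysterols and switch on export genes such as Abca1 and Abcg1. Erythroid precursors divide fast and need membrane sterol, while a maturing red cell later loses its organelles and its capacity for synthesis.

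Replicate 1 held 59610967 expected counts (estimated fragments per gene) and replicate 2 held 44689405, of which the 29 genes took 0.266% and 0.283%. The markers of the labelled cell type were present: 13 of 14 erythroid markers reached a TPM of 1 or more in each library (TPM, a transcript abundance on a fixed total, is scaled by transcript length and can be set between genes). Gata1 is among the 13, at 1251 and 872, and transcripts of the endogenous gene and of the fusion cannot be told apart in gene counts. The exception was Slc4a1, a late membrane gene, at 0.52 and 0.36. Of 12 macrophage and monocyte markers, a cell type rich in the export genes, 9 had no count in either library and the list summed to a TPM of 1.73 and 1.93, nearly all Cd68. Hepatocyte markers summed to 0.4 and 0.07, with Alb, Ttr, Fgb and Serpina1a at 0 counts in both libraries, and stromal and endothelial markers to 0.1 and 0.33. In bulk RNA such as this, fewer cells of a type and less RNA per cell cannot be told apart. The libraries differed in general measures. Mitochondrial genes took 0.351% of counts in replicate 1 and 0.243% in replicate 2, and the abundant non-coding genes Gm26917 and Gm42418 took 4.16% and 7.16%. Their part in any difference between the libraries was not tested.

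The promoters of 4 genes are shown because the results turn on them. Srebf2 was the most abundant of the 29 genes. Among the 24 genes searched, Hmgcs1 was the single one with the exact letters TCACNCCAC, a form of the sterol element. Insig2 and Insig1 are the pair of SCAP retention genes, the first detected and the second at 2 counts or fewer. Each promoter shown is the RefSeq window of 250 bases before to 50 bases after a gene start, on build GRCm38.p6 and in the direction of the gene. Capitals mark the motifs found on either strand: TCACNCCAC (sterol element), CCAAT (bound by NF-Y), GGGCGG (bound by SP1), CACGTG (E-box), and the motifs of erythroid GATA factors, which are AGATAA and, likewise, TGATAA. They were searched for one by one, and each match was counted whether or not it overlapped another.
Srebf2 (chr15:82147019-82147318, plus strand): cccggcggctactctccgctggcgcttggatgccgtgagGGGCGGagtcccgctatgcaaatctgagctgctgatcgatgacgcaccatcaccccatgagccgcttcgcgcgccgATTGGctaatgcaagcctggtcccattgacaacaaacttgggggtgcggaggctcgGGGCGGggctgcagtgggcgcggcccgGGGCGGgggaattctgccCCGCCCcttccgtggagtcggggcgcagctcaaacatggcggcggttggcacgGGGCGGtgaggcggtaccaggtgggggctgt
Hmgcs1 (chr13:119690101-119690400, plus strand): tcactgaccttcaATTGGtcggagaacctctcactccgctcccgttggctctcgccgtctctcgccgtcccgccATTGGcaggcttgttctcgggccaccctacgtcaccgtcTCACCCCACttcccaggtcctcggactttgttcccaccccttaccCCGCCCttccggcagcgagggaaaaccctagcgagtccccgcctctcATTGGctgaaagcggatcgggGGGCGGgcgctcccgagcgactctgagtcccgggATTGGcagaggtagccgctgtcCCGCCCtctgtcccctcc
Insig2 (chr1:121327975-121328274, minus strand): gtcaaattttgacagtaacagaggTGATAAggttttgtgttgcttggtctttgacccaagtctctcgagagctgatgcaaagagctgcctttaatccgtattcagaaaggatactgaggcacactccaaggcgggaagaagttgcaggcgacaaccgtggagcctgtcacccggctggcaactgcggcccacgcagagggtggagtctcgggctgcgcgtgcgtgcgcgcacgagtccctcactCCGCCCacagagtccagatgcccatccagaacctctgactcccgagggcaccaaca
Insig1 (chr5:28071162-28071461, plus strand): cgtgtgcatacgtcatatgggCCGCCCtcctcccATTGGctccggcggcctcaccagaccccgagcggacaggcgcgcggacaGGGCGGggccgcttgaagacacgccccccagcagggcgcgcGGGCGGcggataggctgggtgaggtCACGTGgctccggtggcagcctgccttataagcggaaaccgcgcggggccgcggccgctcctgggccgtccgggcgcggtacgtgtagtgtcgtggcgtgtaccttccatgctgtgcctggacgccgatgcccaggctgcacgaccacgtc

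RefSeq windows were given for 24 of the 29 genes, 32 windows in all; Fdps, Fdft1, Abcg1, Stard4 and Sqle were not searched. CCAAT stood in 22 of the 32 windows (68.8%), against 37.4% of all 32851 windows and 38.8% of the 8371 windows of detected genes. GGGCGG stood in 26 windows (81.3%), against 35.7% of all windows and 67.0% of those of detected genes. CACGTG stood in 7 windows (21.9%), against 7.15% and 10.8%. The letters TCACNCCAC stood in 1 window (3.13%), that of Hmgcs1, where they begin 137 bases before the start, against 1.24% and 1.09%. The motif AGATAA stood in 1 window and the motif TGATAA in 1 window, both of Insig2, against 11.2% and 9.05% of all windows and 5.90% and 3.72% of those of detected genes. TGATAA is in the Insig2 window shown and AGATAA in another Insig2 window. A match of letters is a description of these windows and does not show binding, and a motif missing here may lie outside them. Sequences that differ from the letters given were not searched for. A window without TCACNCCAC may therefore still hold another form of the sterol element.

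Of the 29 genes, 23 were detected, meaning that each library reached a TPM of 1, against 38.3% of all protein-coding genes. By role, 18 of 19 synthesis enzymes, 4 of 5 genes of SREBP control and 1 of 5 genes of transport, efflux, storage and uptake control were detected. The median of the 29 mean TPM values was 9.60, against 0.03 over all protein-coding genes. Among detected genes alone it was 10.8 over the members and 20.8 over all 8219, so the median of the detected members lay below that of all detected genes. The threshold passed through the list at the enzyme end: Hsd17b7, just inside it, had a TPM of 1.5 in replicate 1 and 1.31 in replicate 2, and Sc5d, just outside, had 1.75 and 0.95. The authors' deposited interval for Sc5d in replicate 2 ran from 0.732 to 1.19.

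**Figure D1:**
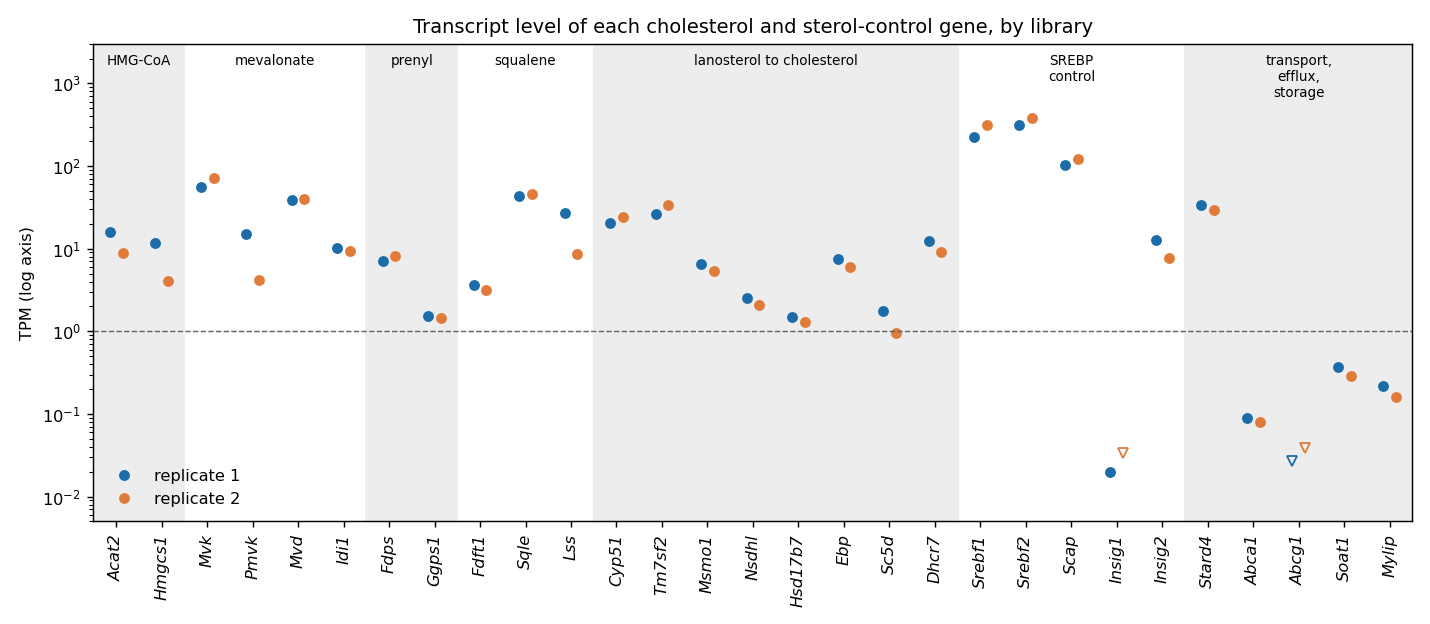
TPM (log axis) of the 29 genes in pathway order, one point for each library; the dashed line is a TPM of 1 and open triangles mark a library with no reported signal, drawn at the TPM that 3 counts would give. Srebf1, Srebf2 and Scap sit above every enzyme in both libraries, while Insig1, Abca1, Abcg1, Soat1 and Mylip sit below 1.

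The SREBP genes and their escort stood highest. Srebf2, which encodes the SREBP chiefly linked to cholesterol genes (chromosome 15, 82147181 to 82205379, plus strand), had a TPM of 314 in replicate 1 and 384 in replicate 2 (349 ± 49.4, mean and SD, n = 2). Srebf1, whose products drive fatty acid genes as well (chromosome 11, 60199089 to 60222581, minus strand), had 223 and 312 (268 ± 62.9). Scap (chromosome 9, 110333288 to 110384950, plus strand) had 103 and 121 (112 ± 12.1). Each was above the highest enzyme in both libraries, and Srebf2 lay at percentiles 98.0 and 98.2 of protein-coding genes. The summed TPM of Srebf1, Srebf2 and Scap was 641 in replicate 1 and 817 in replicate 2, against 309 and 289 for the 19 enzymes together, a ratio of 2.07 and 2.83. Counting only transcripts with the full coding sequence, defined below, the ratio was 2.19 and 2.64.

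Srebf1 is known for its alternative starts, an upstream one giving SREBP-1a and a downstream one giving SREBP-1c. The annotation holds 12 Srebf1 transcripts. Srebf1-201, a coding transcript from the upstream start (60220604), had a TPM of 41.7 in replicate 1 and 37.0 in replicate 2. Srebf1-207, a coding transcript that begins near the downstream start (60210465), had 9.79 and 7.52. The most abundant coding transcript, Srebf1-203, had 74.7 and 87.1, but its annotated 5′ end (60207188) lies downstream of both starts, so its signal cannot be given to either start. The short non-coding Srebf1-208, of 686 bases, begins near the downstream start too (60210392) and had 58.3 and 120. With it, the transcripts that begin near the downstream start exceeded Srebf1-201 by TPM; without it they were below. Srebf1-208 held 26.1% and 38.4% of Srebf1 TPM but 5.65% and 10.5% of its counts. Srebf2 exceeded Srebf1 by a TPM ratio of 1.41 and 1.23, and by 2.49 and 2.92 over transcripts with the full coding sequence. The order held on both measures and its size did not. The second measure counts Srebf1-203 as full, although its annotated coding sequence is 3227 bases against 3402 for Srebf1-201. As Srebf1-203 made most of the Srebf1 value there (126 and 132), the size of that ratio rests on counting it. Srebf1 shares 109 exon bases with Rai1 on the other strand, a gene with 62732 and 46599 counts.

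The INSIG genes, whose proteins retain SCAP in the endoplasmic reticulum, were split. Insig2 (chromosome 1, 121304353 to 121332589, minus strand) had a TPM of 12.8 in replicate 1 and 7.70 in replicate 2, averaging 10.2 ± 3.61 (SD, n = 2), from 328 and 149 counts. Insig1 (chromosome 5, 28071363 to 28078662, plus strand), a classic SREBP target, had 2 and 0 counts (95% exact Poisson intervals 0.242 to 7.22 and 0 to 3.69). That is a TPM of 0.02 in replicate 1, while in replicate 2 the limit set by 3 counts was a TPM of 0.0333. Insig1 was therefore at or near the limit of this depth, and what the annotation or the alignment contributes to its low count was not tested. Insig2's level depended on which transcript is meant: Insig2-212, of 478 bases with a partial coding sequence, held 82.3% and 73.6% of its TPM and 52.4% and 44.8% of its counts. Insig2-201, with the full coding sequence, had a TPM of 1.05 and 0.72.

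At the start of the pathway, Acat2, the cytosolic thiolase that joins acetyl-CoA units, had a TPM of 15.9 in replicate 1 and 8.99 in replicate 2. Hmgcs1, which makes HMG-CoA in the cytosol, had 11.7 and 4.03. Both were higher in replicate 1. Mvk, mevalonate kinase (chromosome 5, 114444269 to 114460591, plus strand), was the most abundant enzyme, at 56.2 and 71.9, averaging 64.1 ± 11.1 (SD, n = 2). Pmvk, the next kinase, had 15.0 and 4.2, the widest relative gap of the 4 genes of this stretch. Mvd, the decarboxylase that ends the mevalonate stretch, had 38.7 and 40.0, averaging 39.3 ± 0.940, and Idi1, which isomerizes the resulting unit, had 10.2 and 9.27. The libraries thus differed little for Mvd and Idi1 and much for Pmvk.

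Of the genes that make prenyl diphosphates, Fdps lay within the library range of Hmgcs1, and Ggps1 was below every enzyme before it. Fdps, farnesyl diphosphate synthase, had a TPM of 7.16 in replicate 1 and 8.20 in replicate 2, and Ggps1, which makes the geranylgeranyl unit for protein prenylation, had 1.53 and 1.44. Fdft1, squalene synthase and the first step committed to sterols, had 3.62 and 3.15. Sqle, squalene epoxidase and a known control point, stood far above it, at 42.9 and 46.3, averaging 44.6 ± 2.45 (SD, n = 2). Lss, which closes the ring to lanosterol, had 27.2 and 8.55. The Lss gap came with a different assignment of reads to transcripts. Lss-202, a non-coding transcript of 352 bases, had a TPM of 15.9 in replicate 1 and 0 in replicate 2, while the coding Lss-201 had 8.46 and 6.60.

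Among the 8 genes from lanosterol to cholesterol, Tm7sf2, a sterol C14 reductase, had a TPM of 26.3 in replicate 1 and 34.0 in replicate 2. Cyp51, the C14 demethylase, had 20.7 and 23.9. Over full coding transcripts Tm7sf2 had 6.85 and 3.86, below Cyp51, whose values were the same on both measures. Dhcr7, the last-step reductase of the Kandutsch-Russell branch, had 12.5 and 9.07. Ebp, a sterol isomerase, had 7.45 and 6.06, and Msmo1, a C4-methyl oxidase, had 6.54 and 5.30. The lowest were Nsdhl, which works with Msmo1, at 2.52 and 2.07, Hsd17b7, the ketosteroid reductase of the same complex, at 1.5 and 1.31, and Sc5d, the C5 desaturase, at 1.75 and 0.95. By gene TPM the enzymes of this stretch therefore spanned means of 1.35 to 30.1. The level did not follow pathway order: Mvk, Sqle and Mvd headed the enzymes, and Ggps1, Hsd17b7 and Sc5d ended them.

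In the order of mean gene TPM over the 23 detected genes, 10 of 22 neighbouring pairs had library ranges that did not overlap. From the top these ran without a break from Srebf2 through Srebf1, Scap, Mvk, Sqle and Mvd to Stard4. Further down the separated neighbours were Tm7sf2 and Cyp51, Msmo1 and Fdft1, Fdft1 and Nsdhl, and Nsdhl and Ggps1. The other 12 pairs did not differ beyond their spread. Over full coding transcripts, defined below, part of this order changed. Tm7sf2, at 6.85 in replicate 1 and 3.86 in replicate 2, was then below Cyp51, at 20.7 and 23.9. Msmo1, at 4.53 and 2.38, overlapped Fdft1, at 3.62 and 3.15. Stard4 fell to 3.02 and 3.12. The other separated pairs stayed apart in the same order.

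Of the 5 members in transport, efflux, storage and uptake control, 4 were below a TPM of 1 in both libraries. Stard4, a cytosolic sterol carrier and known SREBP-2 target, had a TPM of 33.5 in replicate 1 and 29.3 in replicate 2, averaging 31.4 ± 2.95 (SD, n = 2). Of that, 89.2% and 86.9% was the retained-intron transcript Stard4-204, and the full coding transcript Stard4-201 had 3.02 and 3.12. Abca1, the exporter that loads cholesterol onto lipid-poor apolipoprotein, had 0.09 and 0.08, from 47 and 27 counts. Abcg1, which exports to HDL, had 0 counts in both libraries, so 3 counts set limits of 0.0270 and 0.0385 TPM. Mylip, the ubiquitin ligase that removes lipoprotein receptors, had 0.22 and 0.16, and Soat1, which esterifies cholesterol for storage, had 0.37 and 0.29 from 6 and 4 counts. The authors' deposited intervals for Soat1 reached 1.10 and 1.13, and those of the others stayed below 0.3.

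Known LXR targets among the members were Srebf1, Abca1, Abcg1 and Mylip. Srebf1 was high by gene TPM, which adds up transcripts of both its starts and some that cannot be given to either. Near the downstream start, the coding Srebf1-207 had a TPM of 9.79 in replicate 1 and 7.52 in replicate 2. The non-coding Srebf1-208 there had 58.3 and 120. The other 3 LXR targets were not detected, summing to a TPM of 0.31 in replicate 1 and 0.24 in replicate 2. The receptor gene Nr1h2 (LXR beta) had 375 and 388 (264 and 269 over full coding transcripts) and its partner Rxrb 220 and 290 (99.5 and 175). Nr1h3 (LXR alpha) had 0.36 and 0.24, and Rxra and Rxrg were below 1 as well. A receptor's transcript does not show its activity.

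Several steps have a second gene that can do the same or a related reaction, and for some the second gene was the one expressed. For storage, Soat1 was at 0.37 in replicate 1 and 0.29 in replicate 2, and Soat2, known mainly from liver and intestine, was at 9.41 and 7.95. For the ABCG exporters, Abcg1 had no count, and Abcg4, known mainly from brain, was at 37.6 and 37.8, of which full coding transcripts made 16.1 and 13.9. For C14 reduction, Tm7sf2 was at 26.3 and 34.0 and Lbr, the lamin B receptor with the same activity, at 93.0 and 163, a Tm7sf2 over Lbr ratio of 0.283 and 0.208. Full coding transcripts gave 6.85 and 3.86 for Tm7sf2 and 55.0 and 35.2 for Lbr. The member was below the second gene in both libraries and on both measures in these 3 pairs; over full coding transcripts Soat1 was listed at 0.

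For Idi1 and Acat2 the member was the main form on at least one measure. Idi1 stood beside 1 and 0 counts of Idi2. Acat2 at 15.9 and 8.99 was below the mitochondrial thiolase gene Acat1, at 59.0 and 57.9, by TPM. Over full coding transcripts the order turned, with Acat2 at 15.9 and 8.99 and Acat1 at 5.60 and 3.14. Acat3, a close copy of Acat2, had 15.5 and 0 counts, and Acat2's own count in replicate 1 was not whole, so how the authors divided reads between this pair is uncertain.

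**Figure D2:**
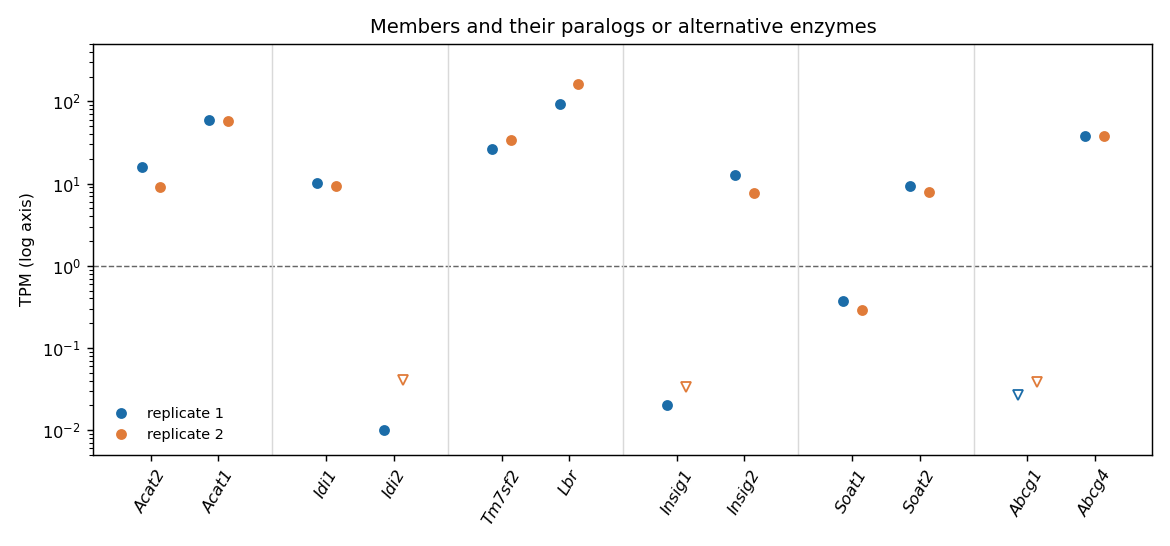
TPM (log axis) of members and their paralogs or alternative enzymes, the member on the left of each pair except that Insig1 and Insig2 are both members; points are libraries, open triangles mark 0 TPM drawn at the level of 3 counts, and the dashed line is a TPM of 1. Soat2, Abcg4 and Insig2 lie above 1 where Soat1, Abcg1 and Insig1 lie below it.

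The level of a gene by TPM can rest on short annotated transcripts, so the share of each gene's signal in transcripts with the full coding sequence was computed. These were protein-coding transcripts whose coding sequence was at least 90% of the longest of the gene. Of the 23 detected genes, 7 had 1 annotated transcript and 16 had several. By the mean share of TPM over both libraries, the leading transcript held the full coding sequence in 11 of the 16 and not in 5, which were Tm7sf2, Hsd17b7, Srebf1, Insig2 and Stard4. The same split over all protein-coding genes was not computed. Within a library the split differed. In replicate 1 another transcript led in 4 genes (Lss, Tm7sf2, Insig2 and Stard4), and in replicate 2 in 6 (Tm7sf2, Msmo1, Hsd17b7, Srebf1, Insig2 and Stard4). By this stricter measure 21 of the 29 genes reached a TPM of 1 in both libraries, against 33.5% of protein-coding genes. Hsd17b7, at 0.84 in replicate 1 and 0.30 in replicate 2, and Insig2 dropped out. The median over the 29 genes was then 5.36.

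For 5 of the 16 genes the share of the leading transcript differed between the libraries by more than 20 percentage points. How often this occurs over all protein-coding genes was not computed, so the count is not read as a trait of these genes. Acat2-201 held 81.9% in replicate 1 and 44.7% in replicate 2, with the shorter coding Acat2-203 at 18.1% and 55.3%. Pmvk-201 held 92.6% and 62.7%. Lss-201 held 31.1% and 77.2%, with Lss-202 at 58.5% and 0%. Msmo1-201 held 69.2% and 44.8%, with the non-coding Msmo1-204 at 23.2% and 47.3%. The non-coding Hsd17b7-204 held 44.0% and 77.1%, with the coding Hsd17b7-201 at 56.0% and 22.9%. By counts Lss-202 held 6.37% and 0%.

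**Figure D3:**
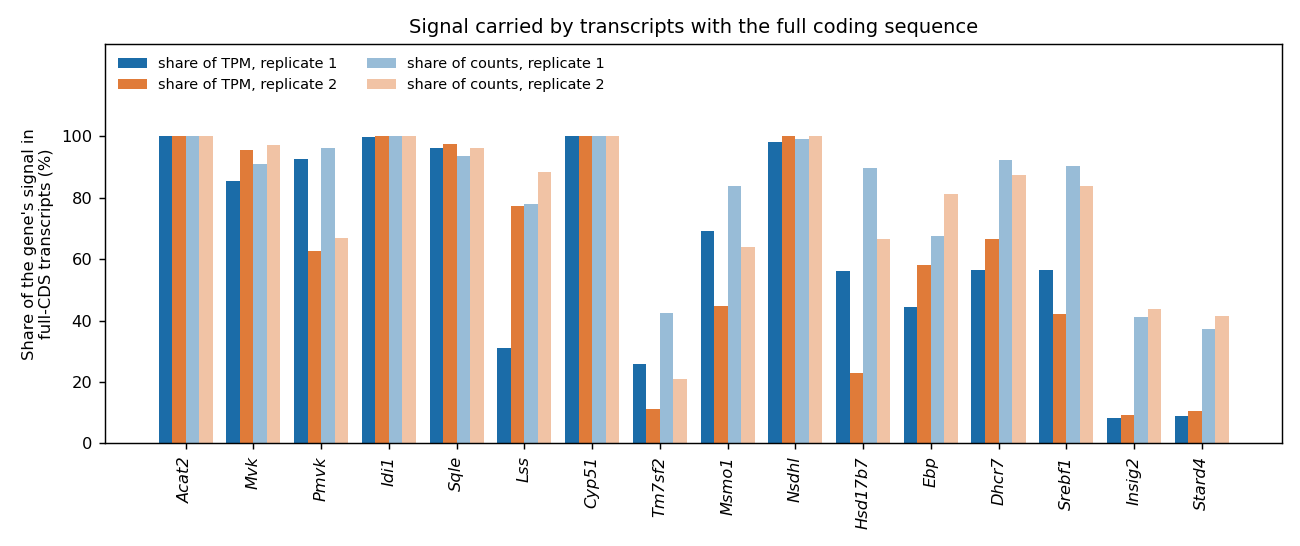
Share of each gene's TPM (dark bars) and expected counts (light bars) in transcripts with the full coding sequence, as a percentage, for the 16 detected genes with several annotated transcripts; replicate 1 is blue and replicate 2 orange. Stard4 and Insig2 hold at most 10.6% of their TPM in such transcripts, and Cyp51, Acat2 and Idi1 at least 99.6%.

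Between the libraries, the ratio of replicate 1 over replicate 2 was taken from counts scaled by TMM, for the 26 genes with at least 20 counts over both libraries. With 1 library on each side the ratio has no replicate check, and it compares libraries and not conditions. Of the 26 genes, 5 differed by at least 1.5-fold, all higher in replicate 1 and all enzymes, against 29.5% of 9764 protein-coding genes. Higher in replicate 1 by that fold were 18.9% of those genes and higher in replicate 2 10.6%, so the members' share of 5 of 26 was near the background and their share in the other direction was 0 of 26. The median log2 ratio was 0.07 over the members and 0.03 over all 9764 genes.

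The 5 genes were Pmvk, Hmgcs1, Hsd17b7, Acat2 and Sc5d. Pmvk had 758 counts in replicate 1 and 146 in replicate 2, a log2 ratio of 1.76 (95% exact counting interval 1.51 to 2.03). Hmgcs1 had 1816 and 440 counts, a log2 ratio of 1.43 (1.28 to 1.59). These are the members that also lay outside the range from -0.77 to 1.23 that holds the middle 90% of protein-coding genes. Acat2 had a log2 ratio of 0.85 (0.71 to 0.99), Hsd17b7 0.95 (0.57 to 1.37) and Sc5d 0.82 (0.41 to 1.25).

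Several other enzymes were lower in replicate 1. Mvk had 4100 and 3856 counts, a log2 ratio of -0.52 (-0.59 to -0.46), while Mvd had -0.15 and Sqle -0.19. The enzymes' log2 ratios ran from -0.52 to 1.76, with 12 above 0 and 7 below. Srebf2 (-0.38), Scap (-0.32) and Srebf1 (-0.27) were all lower in replicate 1. Counts and TPM gave different sizes where the transcripts assigned differed. Lss had a log2 ratio of 0.45 by counts and 1.67 by TPM, and Hsd17b7 0.95 by counts and 0.20 by TPM.

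**Figure D4:**
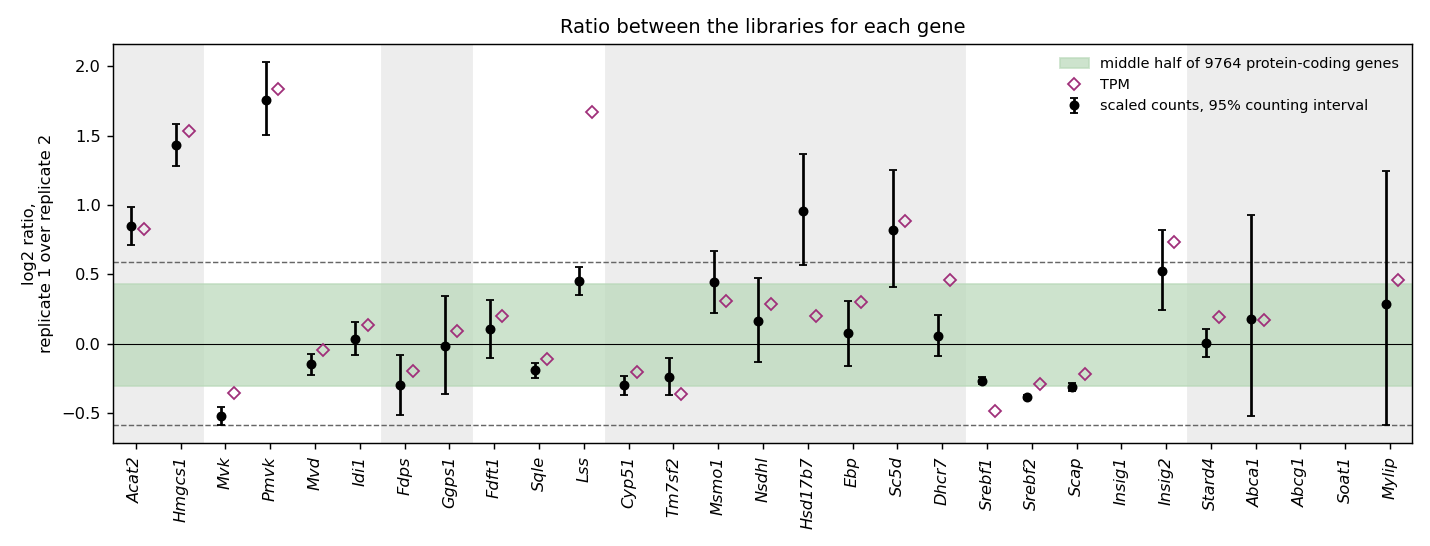
Log2 ratio of replicate 1 over replicate 2 for each gene, from scaled counts (black, bars are 95% counting intervals) and from TPM (open diamonds); the green band runs from the lower to the upper quartile of 9764 protein-coding genes and dashed lines mark a fold of 1.5. Pmvk and Hmgcs1 lie highest by counts, Lss joins them by TPM only, and Insig1, Abcg1 and Soat1 have too few counts to be plotted.

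The wider sterol network, 59 genes in 8 lists, held 42 detected genes, against 38.3% of all protein-coding genes. The order within a list is by gene TPM, and values over full coding transcripts follow where they turn it or are much lower. Both SREBP proteases were detected, Mbtps1 at 35.0 in replicate 1 and 33.3 in replicate 2 and Mbtps2 at 7.62 and 9.29 (0.77 and 0.30 over full coding transcripts). All 7 genes of sterol-regulated degradation were detected. By gene TPM the list was led by Rnf145, an LXR-linked ubiquitin ligase gene, at 313 and 605 (81.1 and 65.5 over full coding transcripts), and by Syvn1, a ligase of the endoplasmic reticulum, at 129 and 167 (122 and 161, above Rnf145 on that measure). Of 10 fatty acid genes under SREBP-1, 8 were detected, led by Fasn, fatty acid synthase, at 396 and 225 (103 and 92.3 over full coding transcripts) and Fads2, a desaturase, at 92.3 and 78.5. Elovl6 and Scd1 were below 1.

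All 11 genes of the non-sterol isoprenoid branch were detected. By gene TPM the highest were Coq2, which acts in ubiquinone synthesis, at 74.8 in replicate 1 and 120 in replicate 2, and Icmt, which methylates prenylated proteins, at 50.7 and 52.7. Over full coding transcripts Coq2 had 25.1 and 28.9 and Icmt 27.8 and 32.3, both below Fnta, a subunit of prenyltransferases, at 43.4 and 51.3. Of 12 further transport and uptake genes 8 were detected, with Gramd1a, a sterol transfer protein gene, at 67.3 and 123, and Scarb1, the HDL receptor gene, at 45.2 and 50.5. Over full coding transcripts Gramd1a had 40.3 and 40.8, below Scarb1 at 43.3 and 45.1. None of 5 oxysterol and bile acid enzymes was detected, and 4 had no count in either library; the fifth, Cyp7a1, had 0 and 1 counts.

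Some of these values carry a limit from the annotation. Of the 29 genes, 6 share annotated exon bases with a gene on the other strand that also had counts, and strand use in counting was not given in the sources used here. Among them Fdft1 shares 774 bases with Ctsb (4070 and 2558 counts), Ggps1 257 with Arid4b (1399 and 1126) and Cyp51 166 with Akap9 (1278 and 903). Tm7sf2 shares 532 bases with Vps51 on the same strand, a gene with 3175 and 2489 counts. Acat2, Idi1, Fdps and Tm7sf2 had an expected count in at least one library that was more than 0.005 from a whole number.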

How the data were processed

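PolyA RNA of 2 libraries was measured by paired-end sequencing. Per the notes deposited with the files, quantification used transcriptome alignments, build mm10 and GENCODE M4. In the sources used here its aligner and quantifier are not given. The authors deposited expected counts per gene and transcript (estimates, not normalized), TPM scaled by effective length, and bounds of an interval around TPM, used as a signal range; effective lengths stood beside them. Names, positions and transcript types came from GENCODE M21 on GRCm38, the same assembly, matching 42462 of 43346 gene rows. Promoters came from RefSeq; protein sequences were not used here.

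Expected counts were rounded and scaled by TMM in edgeR 4.0.16, with a prior count of 0.5. DESeq2 1.42.0 gave alternative size factors. Detection required a TPM of 1 in each library. Percentiles rank TPM among protein-coding genes. No p-value was computed, since there is 1 group. The ratio procedure was tested on simulated counts with known folds and counting error only. That test does not cover other differences between real libraries. Intervals and the limit of 3 counts cover counting error only, and PCR copies are not independent molecules. The libraries were not identical: 2876 of 9764 genes differed at least 1.5-fold, which does not show that they came from separate cultures.

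All 29 members are named. Of 8 lists of related genes, the 2 most abundant of each and every paralog were to be named, of which 1 gene is not reported here; Rxra, Rxrg, Nr1h3, Elovl6, Scd1 and Fnta, genes that overlap members, and Srebf1-201 and Srebf1-207, were named after their values were seen. Members, lists and motifs were chosen with earlier results of these data known. The measure over full coding transcripts was added after the data were seen. Planned comparisons of the protein sequences of Insig and Srebf genes were not made.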

Additional observations from a re-analysis of the deposited data

How the results depend on the processing

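The count of 23 detected genes ran from 17 at a TPM threshold of 5 to 24 at 0.5, was 23 with posterior mean TPM, and 23 to 24 when either library was left out. The median TPM of the members, 9.60, was 9.57 with posterior mean TPM, 7.70 to 11.7 with a library left out, and 5.36 over full coding transcripts, a measure chosen after seeing the data. The count of genes at least 1.5-fold higher in replicate 1 was 5, and 8 with scaling by total counts, which moves the median log2 ratio of all tested genes to 0.23, against 0.03 with TMM; Lss, Msmo1 and Insig2 were added. It was 2 at a fold of 2 (Pmvk and Hmgcs1) and 5 to 6 under the other alternatives. The count higher in replicate 2 was 0 in all of these except without a filter on low counts, where it was 1 (Abcg1, whose 0 counts in both libraries make that ratio one of library sizes only). From TPM, Hsd17b7 (and, at a pseudocount of 1, Sc5d) no longer passed the fold, and Lss and Insig2 did. Of 16 leading transcript shares, 8 moved by more than the spread between libraries when taken from expected counts. A ratio without either library does not exist. No paired analysis was possible because there is 1 group. Low counts limit the precision for Insig1, Abcg1, Soat1, Abca1 and Mylip, each with under 50 counts per library. Of these, Insig1 and Abcg1 were below the limit of 3 counts in both libraries and the others were above it.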
